A study of Mus musculus with 8 samples.

Results

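*Dnmt3l* and 9 genes that lie close to it on mouse chromosome 10 (*Lrrc3*, *Trpm2*, *Pfkl*, *Aire*, *Icosl*, *Pwp2*, *Trappc10*, *Agpat3* and *Cstb*) were followed through bone marrow mesenchymal stem cells (MSCs) with and without the *Dnmt3l* gene. The 10 genes were taken by their symbols from the 24346 genes of the expression table, and all 10 were found. RNA was measured in 8 libraries of C57BL/6 cells at passage 4. They form 4 groups of 2, since both WT and *Dnmt3l* KO MSCs were taken in the undifferentiated state and while differentiating. The KO mice carried the tmEnls mutant allele of *Dnmt3l* on both copies and the WT mice were their littermates from a cross of heterozygous parents. Adult females were used, and the MSCs of several mice were mixed by genotype after bead depletion of CD11b and CD45 cells. Differentiating cells had spent 3 days in osteogenic induction medium with dexamethasone, β-glycerophosphate and ascorbate. By the study's methods this medium held less serum than the culture medium and was given once cells were confluent. No library is labelled as uninduced cells of day 3. In all comparisons on induction, the inducers, serum, confluence and time in culture therefore cannot be told apart. Whether libraries of the same group stem from separate cultures is not given in the labels, so p-values measure only the spread between these libraries, which may be technical. The KO and WT chromosomes may also differ in DNA that is inherited together with the mutant allele, and for genes this close to it the mutation and the linked DNA cannot be told apart.

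DNMT3L is a member of the DNA methyltransferase 3 family that has lost its own catalytic activity. It binds DNMT3A and DNMT3B, stimulates them, and reads the unmethylated tail of histone H3. It is best known from germ cells and embryonic stem cells, where it is needed for maternal imprints and for the silencing of transposable elements, and it is silent or low in most somatic cells. The neighbours have unrelated roles. AIRE drives the display of tissue antigens in the thymus and ICOSL is a costimulatory ligand on antigen-presenting cells. PFKL is the liver form of phosphofructokinase, the enzyme of the committed step of glycolysis, and AGPAT3 is an acyltransferase of phospholipid synthesis. PWP2 belongs to the small subunit processome, which assembles ribosomes, and TRAPPC10 to the TRAPP II complex of vesicle traffic. Cystatin B (CSTB) inhibits cysteine cathepsins, TRPM2 is a calcium-permeable channel opened by ADP-ribose, and LRRC3 is a membrane protein with leucine-rich repeats.

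In the GENCODE annotation of mm10 the 10 genes span 530 kb. From the lower coordinates up they are *Lrrc3* (chr10:77897575-77902536, minus strand), *Trpm2* (chr10:77907722-77970563, minus), *Pfkl* (chr10:77986947-78010083, minus), *Aire* (chr10:78030022-78043610, minus), *Dnmt3l* (chr10:78041947-78063622, plus), *Icosl* (chr10:78069302-78083913, plus), *Pwp2* (chr10:78170909-78185149, minus), *Trappc10* (chr10:78186725-78244641, minus), *Agpat3* (chr10:78269178-78352489, minus) and *Cstb* (chr10:78425669-78427622, plus). *Aire* and *Dnmt3l* point away from each other and overlap by 1664 nt at their 5′ ends. *Icosl* follows *Dnmt3l* on the same strand after a gap of 5679 nt, and 31863 nt separate *Pfkl* from *Dnmt3l*.

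Some promoters from the centre of the locus are given because DNMT3L acts in part through methylation of CG dinucleotides. Those of *Dnmt3l*, *Icosl* and *Pfkl* were picked with their lower KO values, described further on, already known. The promoter of *Aire*, with 16 CG, is not printed. Whether CG number relates to expression was not tested. The sequences are RefSeq promoters of GRCm38.p6, the mm10 assembly, with 250 bases before and 50 bases after each start, and each CG is in capitals. Of the 10 genes 9 matched, with 11 promoters in all. *Dnmt3l* has 3 listed starts, at chr10:78042037-78042336, chr10:78049592-78049891 and chr10:78055085-78055384 (all plus strand). The promoter of *Icosl* is at chr10:78069118-78069417 (plus) and that of *Pfkl* at chr10:78009758-78010057 (minus).
Dnmt3l, start at the lowest coordinate: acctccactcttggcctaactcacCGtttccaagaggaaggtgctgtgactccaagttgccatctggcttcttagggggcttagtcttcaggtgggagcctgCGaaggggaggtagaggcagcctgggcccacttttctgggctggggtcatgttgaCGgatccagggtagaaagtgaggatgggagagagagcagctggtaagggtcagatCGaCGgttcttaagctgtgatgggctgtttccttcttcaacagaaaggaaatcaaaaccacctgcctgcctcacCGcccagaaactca
Dnmt3l, middle start: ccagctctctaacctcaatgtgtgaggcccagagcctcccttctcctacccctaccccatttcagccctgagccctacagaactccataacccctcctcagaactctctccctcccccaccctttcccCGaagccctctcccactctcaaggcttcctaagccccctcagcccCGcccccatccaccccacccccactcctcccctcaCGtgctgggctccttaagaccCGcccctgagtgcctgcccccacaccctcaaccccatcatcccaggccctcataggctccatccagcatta
Dnmt3l, start at the highest coordinate: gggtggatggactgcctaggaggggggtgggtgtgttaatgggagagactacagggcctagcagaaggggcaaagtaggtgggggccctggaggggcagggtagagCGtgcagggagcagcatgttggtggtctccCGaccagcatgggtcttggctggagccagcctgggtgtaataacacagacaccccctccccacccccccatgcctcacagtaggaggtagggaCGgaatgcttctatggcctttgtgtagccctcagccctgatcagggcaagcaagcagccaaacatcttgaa
Icosl: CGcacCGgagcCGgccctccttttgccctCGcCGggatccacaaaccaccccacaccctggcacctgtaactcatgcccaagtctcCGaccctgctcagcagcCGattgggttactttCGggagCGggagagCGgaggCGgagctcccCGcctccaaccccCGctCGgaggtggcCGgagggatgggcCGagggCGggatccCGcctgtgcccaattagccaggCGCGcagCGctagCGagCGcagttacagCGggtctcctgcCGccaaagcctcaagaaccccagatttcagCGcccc
Pfkl: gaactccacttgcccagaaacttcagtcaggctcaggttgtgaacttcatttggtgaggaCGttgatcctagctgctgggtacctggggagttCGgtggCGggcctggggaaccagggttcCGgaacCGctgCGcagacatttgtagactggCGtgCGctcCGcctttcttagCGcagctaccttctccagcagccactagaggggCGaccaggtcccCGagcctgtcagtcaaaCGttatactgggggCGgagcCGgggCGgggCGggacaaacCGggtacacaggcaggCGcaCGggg

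The 3 *Dnmt3l* promoters held 6, 4 and 3 CG, read along the gene, and the *Icosl* and *Pfkl* promoters held 26 and 20. CG reads the same on both strands, and its matches cannot overlap. Over all 32851 promoters of this length the median was 7 CG. Of all promoters, 56.4%, 68.6% and 76.7% held at least as many CG as the 3 *Dnmt3l* starts, 16.9% at least as many as *Icosl* and 26.5% at least as many as *Pfkl*. *Trappc10* had the most CG of the 9 genes, with 38, a number that 4.95% of promoters reached. These letters describe the reference sequence, and methylation of the locus was not analysed here.

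Values are RPKM, reads counted on a gene's transcript, divided by its length in kilobases and by the depth of the library. Depth was estimated from the steps between low values at 48.4 to 66.9 M scaled reads per library. Tests used limma on log2(RPKM + 0.1) over 15342 genes, those whose average over all libraries reached 0.1 RPKM, with p-values adjusted over all of them. The term "called" is used for an adjusted p-value under 0.05, and a differentially expressed gene (DEG) also had an absolute log2 fold change above 1. Calls were common: between genotypes 32.2% of all tested genes were called in undifferentiated and 40.7% in differentiating MSCs, on induction 64.4% in WT and 72.9% in KO MSCs, and 39.4% for the interaction. Counts for the gene lists are to be read against these shares. Of the 10 genes 7, all but *Aire*, *Icosl* and *Trpm2*, passed the minimum and entered the test. The fold changes understate the change of low genes.

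In undifferentiated WT MSCs the order of the mean levels, which are per length, was *Cstb*, *Pfkl*, *Agpat3*, *Trappc10*, *Pwp2*, *Dnmt3l*, *Lrrc3*, *Icosl*, *Trpm2* and *Aire*. The 2 libraries of each gene did not overlap with those of the next gene in this order. The highest mean was 164 ± 8.69 RPKM (SD, n = 2) for *Cstb* and *Aire* was listed at 0. In undifferentiated KO MSCs the order was the same but for *Dnmt3l*, listed at 0, and the libraries of *Trappc10* and *Pwp2* overlapped. In both differentiating groups *Agpat3* stood above *Pfkl*. In differentiating KO MSCs *Pfkl* overlapped with *Trappc10*, and *Icosl* with *Trpm2*.

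**Figure D1:**
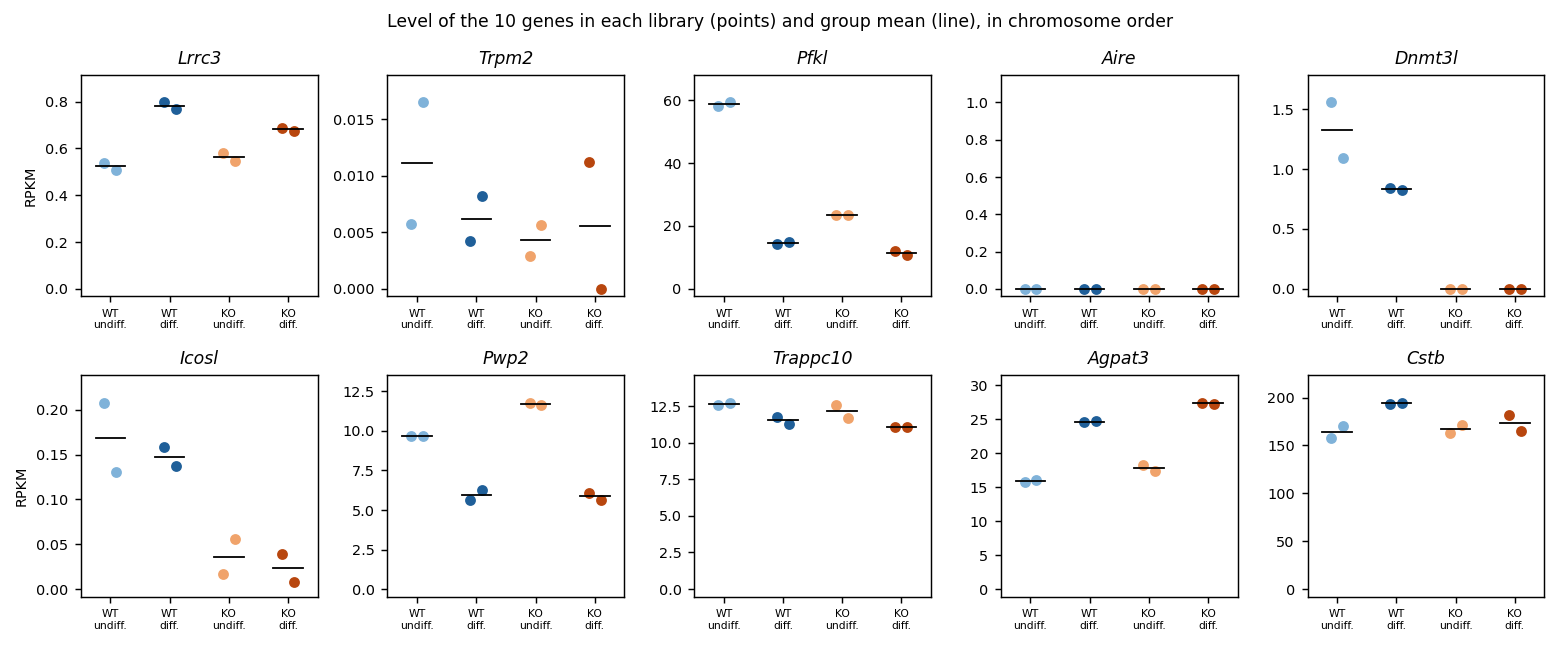
RPKM of each of the 10 genes (vertical axes, linear, 1 panel a gene, each with its own scale) in the 4 groups (horizontal axis), with a point per library and a line at the group mean. *Dnmt3l* is at 0 in all 4 KO libraries, *Icosl* is lower in each KO library than in each WT library, *Pfkl* falls from 58.7 RPKM in undifferentiated WT to 23.4 in undifferentiated KO MSCs, and *Aire* is at 0 throughout.

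*Dnmt3l* itself was low in WT MSCs and listed at 0 in every KO library. Its 1.56 and 1.09 RPKM in undifferentiated WT MSCs rest on about 123 and 90.3 reads, and its 0.845 and 0.830 RPKM in differentiating WT MSCs on about 91.6 and 68.7 reads, by the estimated depth. The level fell in WT MSCs on induction, which was called in the fit of all 8 libraries (log2 fold change -0.59, standard error 0.18, adjusted p = 0.0315). The 4 KO libraries, all at 0, add no spread to that standard error. In a fit of only the 4 WT libraries the call was lost (0.0703). It was also lost with a pseudocount of 0.01 (0.185) and with a minimum of 0.5 RPKM (0.162). Without replicate 1, the higher undifferentiated library, the log2 fold change was -0.35 with an adjusted p of 0.103. The call was also lost without replicate 1 or 2 of differentiating WT MSCs (0.0896 and 0.0970), and over all alternatives the adjusted p ranged from 0.00478 to 0.185. On the longest transcript of 1822 nt, 3 reads would have given 0.0277 to 0.0383 RPKM, so a lower level in KO MSCs was not detectable. Reads and limit assume this transcript, and on a shorter one the same RPKM would rest on fewer reads and the limit would be higher. An exact 0 can also be a failed estimate, since 50 genes of the table reach 20 RPKM in both libraries of a group and are listed at 0 in both libraries of another. The table has 1 value per gene, so the start that the WT reads came from is not known from it.

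*Aire*, whose annotated 5′ part overlaps that of *Dnmt3l* on the opposite strand, was listed at 0 in all 8 libraries. Annotated *Dnmt3l* transcripts that start at chr10:78049842 or further on do not overlap *Aire*. At the estimated depth 3 reads on it would have given 0.0258 to 0.0357 RPKM. Reads were from a stranded kit and were aligned with regard to strand.

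*Icosl*, the next gene downstream of *Dnmt3l*, was low throughout and lower in KO than in WT MSCs in both states. It stood at 0.208 and 0.130 RPKM in undifferentiated WT and at 0.158 and 0.137 RPKM in differentiating WT MSCs. In KO MSCs it stood at 0.0163 and 0.0554 RPKM before and 0.0390 and 0.00793 RPKM after induction. The groups did not overlap: the lowest WT library was above the highest KO library. The estimated reads were 26.5, 17.3, 27.6 and 18.3 in the WT libraries and 2.1, 7.2, 5.1 and 1 in the KO libraries, in the same order. A count of 3 reads would give 0.0172 to 0.0237 RPKM, so 2 KO libraries lay under the level that 3 reads give.

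The mean of *Icosl* over all libraries was 0.0940 RPKM, just under the minimum, so its test comes from the fit of all 20022 genes above 0. There KO against WT MSCs differed by a log2 fold change of -0.99 in the undifferentiated (standard error 0.22, adjusted p = 0.0269) and -1.01 in the differentiating state (standard error 0.22, adjusted p = 0.0196). In that fit 22.8% and 30% of all genes were called in these comparisons. The call in undifferentiated MSCs was lost on leaving out any 1 of the 4 undifferentiated or the 2 differentiating WT libraries, with adjusted p-values of 0.0603 to 0.134, and with a pseudocount of 0.01 (0.0672). In differentiating MSCs it was lost without replicate 1 or 2 of WT or replicate 2 of KO (0.0951 to 0.104). Induction left *Icosl* without a called change in WT (log2 fold change -0.10, adjusted p = 0.740) and in KO MSCs (-0.13, adjusted p = 0.646), and the difference between the genotypes in this response was -0.03 (adjusted p = 0.963).

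Because *Icosl* is a gene of antigen-presenting cells, markers of leukocytes and macrophages were read in the same libraries. In bulk RNA, fewer cells of a type and less RNA per cell cannot be told apart. Of 13 listed markers 12 were in the table, and the T cell marker *Cd3e* was at 0 in all libraries. Their summed level was 18.2 to 19.3 RPKM in undifferentiated WT, 31.6 to 36.4 in differentiating WT, 8.79 to 9.60 in undifferentiated KO and 13.8 to 14.9 RPKM in differentiating KO MSCs. The sum was thus lower in KO MSCs in both states, which in undifferentiated MSCs rested on lysozyme (*Lyz2*). The sum was higher after induction in both genotypes, which single markers did not all share. In KO MSCs 2 of the 8 tested markers were called higher (*Lyz2* and *Cd14*) and *Csf1r* was called lower (log2 fold change -2.06). *Lyz2* was the largest term of the sum in every library and made up most of it in the WT libraries. It stood at 12.8 and 13.4 RPKM in undifferentiated WT against 3.43 and 3.19 RPKM in undifferentiated KO MSCs. In this state *Cd14* and *Csf1r* had means of 1.35 and 1.48 RPKM in WT and 2.39 and 1.89 RPKM in KO MSCs. The defining marker *Ptprc* (CD45) was at 0.0808 to 0.127 RPKM in the WT libraries and 0 to 0.0698 RPKM in the KO libraries, with lower means after than before induction in both genotypes (WT means of 0.112 and 0.0808 RPKM and KO means of 0.0471 and 0.00203 RPKM, too low for a test). Of the 8 markers tested, 3 were called lower and 2 higher in undifferentiated KO MSCs, the higher ones being *Csf1r* and *Cd14*, and 7 were called lower and 1 higher in differentiating KO MSCs. The part of these cells in the *Icosl* result was not tested. Other B7 ligands from the list of the family showed no common pattern: of 6 that the table held, 3 could be tested. None of these was called in undifferentiated and 2 (*Cd80* and *Cd276*) were lower in differentiating KO MSCs.

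*Pfkl*, the most abundant neighbour after *Cstb* in undifferentiated cells, was lower in KO MSCs in both states, and most so before induction. In undifferentiated MSCs it stood at 58.2 and 59.3 RPKM in WT and at 23.5 and 23.4 RPKM in KO, means of 58.7 ± 0.747 and 23.4 ± 0.0858 RPKM (SD, n = 2). The KO level was 0.400 times the WT level (log2 fold change -1.32, standard error 0.05, adjusted p = 1.15e-04). After induction *Pfkl* stood at 14.1 and 14.9 RPKM in WT and at 11.9 and 10.9 RPKM in KO MSCs. Here too both KO libraries were below both WT libraries, and the difference was smaller (log2 fold change -0.35, standard error 0.05, adjusted p = 0.00367).

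*Pfkl* was lower after induction in both genotypes, by 2.01 on the log2 scale in WT (log2 fold change -2.01, standard error 0.05, adjusted p = 1.46e-06) and less in KO MSCs (-1.04, standard error 0.05, adjusted p = 7.42e-06). The difference between these responses was tested as an interaction and was called (0.97, standard error 0.07, adjusted p = 6.82e-04). *Pfkl* stayed called in all 5 comparisons under every alternative tried. Its log2 fold change ranged from -1.34 to -1.28 in undifferentiated MSCs, from -0.41 to -0.29 in differentiating MSCs (highest adjusted p 0.0455) and from 0.91 to 1.03 for the interaction.

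The other phosphofructokinase genes did not share this size of difference. *Pfkm*, the muscle form, stood at 16.7 and 16.4 RPKM in undifferentiated WT and 15.9 and 15.7 RPKM in undifferentiated KO MSCs and was not called (log2 fold change -0.07, adjusted p = 0.257). *Pfkp*, the platelet form, stood at 21.1 and 21.4 RPKM in WT and 17.7 and 18.1 RPKM in KO MSCs and was called lower (log2 fold change -0.25, standard error 0.03, adjusted p = 0.00425). In differentiating MSCs neither was called between genotypes, with log2 fold changes of 0.11 (adjusted p = 0.0840) and 0.04 (adjusted p = 0.413).

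Summed over the 3 genes, phosphofructokinase RNA came to 96.0 and 97.1 RPKM in undifferentiated WT MSCs and to 55.2 to 57.1 RPKM in the other 6 libraries. *Pfkl* made up 60.6% and 61.1% of the sum in undifferentiated WT and 41.2% and 40.9% in undifferentiated KO MSCs. After induction its share was 24.7% and 26.2% in WT and 21.0% and 19.7% in KO MSCs. *Pfkl* was thus the most abundant of the 3 in undifferentiated cells of both genotypes and the least abundant after induction.

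**Figure D2:**
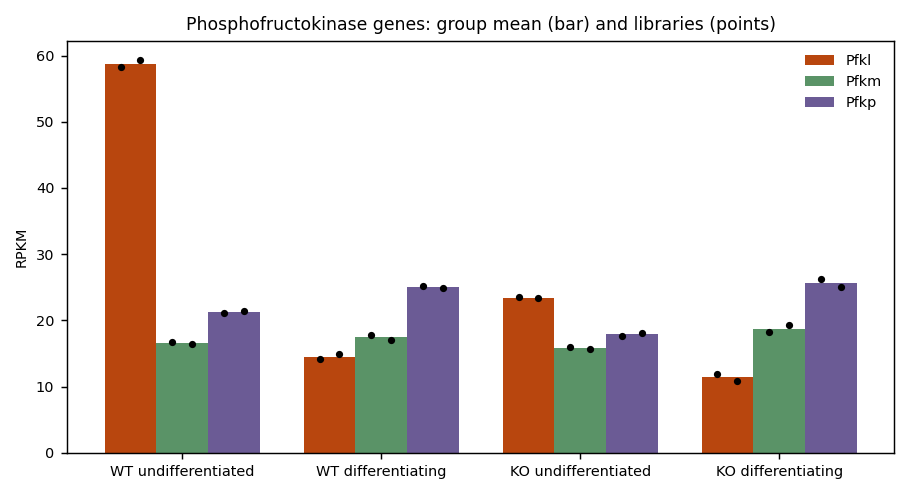
Mean RPKM of *Pfkl*, *Pfkm* and *Pfkp* (bars, linear axis from 0) in the 4 groups, with a point for each of the 2 libraries. *Pfkl* stands at 58.7 RPKM in undifferentiated WT, 23.4 in undifferentiated KO and 14.5 and 11.4 RPKM in differentiating WT and KO MSCs, while the other genes stay between 15.7 and 26.3 RPKM.

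Glycolysis genes, a list of 17 others from the glucose transporter *Slc2a1* to lactate dehydrogenase *Ldha*, were mostly lower in undifferentiated KO MSCs. Of the 17, 12 were called lower and none higher, with a median log2 fold change of -0.27 beside -0.0027 over all tested genes, of which 32.2% were called. No listed gene reached the DEG limits there, and *Pfkl* had a larger fall than any of them. In differentiating MSCs 8 were called lower and none higher (median -0.26, all genes -0.0067), near the 40.7% of all genes called. On induction 13 were called lower and 1 higher in WT (median -1.03, all genes 0), and 14 lower and 3 higher in KO MSCs (median -0.94). The interaction was called in 9, of which 5 were positive like *Pfkl* and 4 negative. The count of 12 was 7 without replicate 2 of either undifferentiated genotype, and the count of 8 was 5 in a fit of only the 4 differentiating libraries.

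**Figure D3:**
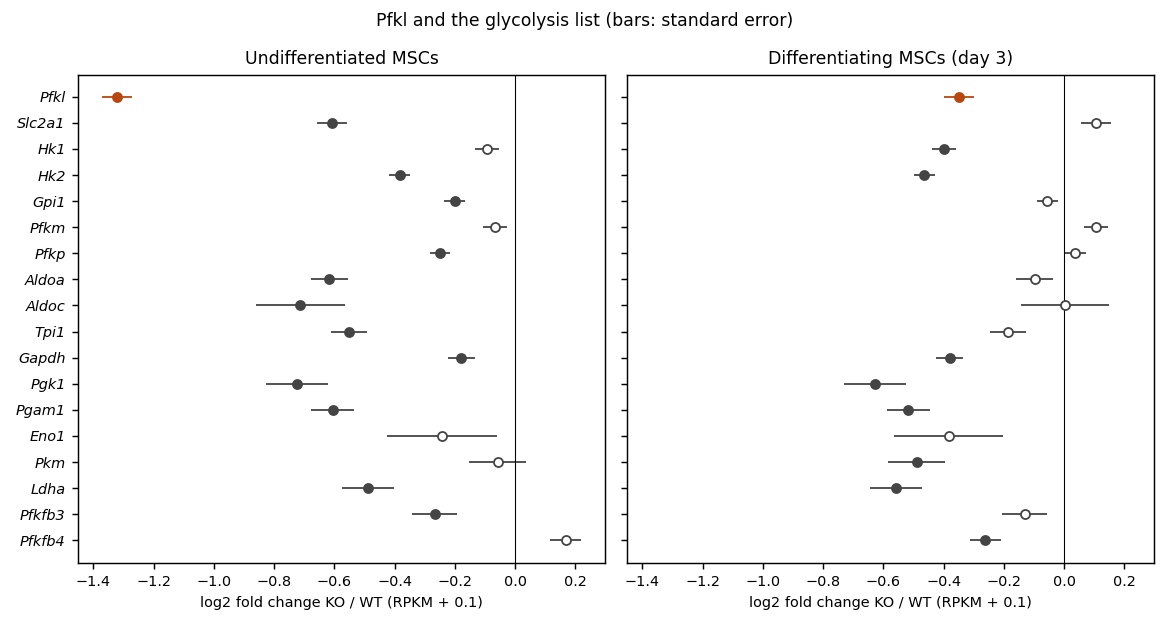
Log2 fold change of KO against WT (horizontal axis, RPKM + 0.1) for *Pfkl* (orange) and the 17 listed glycolysis genes (grey) in undifferentiated (left) and differentiating MSCs (right), with bars for the standard error and filled points for an adjusted p under 0.05. *Pfkl* lies at -1.32 on the left, beyond all listed genes, and at -0.35 on the right, among them.

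*Pwp2*, the ribosome assembly gene, was slightly higher in undifferentiated KO MSCs and fell on induction in both genotypes. It stood at 9.70 RPKM in both undifferentiated WT libraries and at 11.8 and 11.7 RPKM in the KO libraries (log2 fold change 0.27, standard error 0.06, adjusted p = 0.0214). After induction the values were 5.62 and 6.25 RPKM in WT and 6.11 and 5.66 RPKM in KO MSCs, which overlap (log2 fold change -0.01, adjusted p = 0.905). The fall was -0.70 in WT and -0.98 in KO MSCs on the log2 scale (adjusted p = 1.64e-04 and 2.28e-05). The difference between the falls was called (-0.28, standard error 0.09, adjusted p = 0.0464). That call was lost in 11 alternatives, among them quantile normalization (0.0641), median centring (0.0563) and the omission of any 1 undifferentiated library or of replicate 2 of differentiating WT or KO MSCs (0.106 to 0.128). The call in undifferentiated MSCs was lost without any 1 of the 4 undifferentiated libraries (0.0883 to 0.104).

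The rest of the small subunit processome moved alike on induction. All 19 listed genes in the table were called lower in WT (median log2 fold change -0.55) and in KO MSCs (median -0.84), and 18 with quantile normalization. Between genotypes 4 were higher and none lower in undifferentiated KO MSCs, among them fibrillarin (*Fbl*, log2 fold change 0.38), and 11 were lower and none higher in differentiating KO MSCs. The first count is below and the second above the share of all genes called (32.2% and 40.7%). The interaction was negative and called in 12 of 19, with a median of -0.26 beside -0.0070 over all tested genes. With quantile normalization 8 genes were higher in undifferentiated KO MSCs in place of 4.

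*Agpat3*, the phospholipid acyltransferase, was higher in KO MSCs in both states and rose on induction in both genotypes. In undifferentiated MSCs it stood at 15.8 and 16.1 RPKM in WT and 18.3 and 17.4 RPKM in KO (log2 fold change 0.16, standard error 0.03, adjusted p = 0.0171). In differentiating MSCs the values were 24.5 and 24.8 RPKM in WT and 27.4 and 27.3 RPKM in KO (log2 fold change 0.15, standard error 0.03, adjusted p = 0.0179). The KO libraries lay above the WT libraries in both states, and the KO level was 1.12 and 1.11 times the WT level. The first call was lost in a fit of only the 4 undifferentiated libraries (0.0509) and without replicate 1 of either genotype or replicate 2 of WT (0.0631 to 0.0822). The second was lost without replicate 1 or 2 of WT or replicate 2 of KO (0.0526 to 0.0771). The rise on induction was 0.63 in WT and 0.61 in KO MSCs (adjusted p = 2.46e-05 and 1.47e-05), and the interaction was -0.01 (adjusted p = 0.854).

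Genes of the same lipid pathway did not move with *Agpat3*. Of 11 other acyltransferase and lipin genes, 5 were lower and 1 (*Agpat1*) higher in undifferentiated KO MSCs, and 4 were lower and 1 (*Lpin1*) higher in differentiating KO MSCs (32.2% and 40.7% of all genes called). On induction 6 were lower and 2 higher in WT, and 6 lower and 3 higher in KO MSCs. None was a DEG between genotypes. The median log2 fold change between genotypes was -0.18 before and -0.06 after induction. With median centring *Agpat1* was no longer called, and with quantile normalization 3 genes were higher in differentiating KO MSCs.

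*Trappc10* was close to even over the 8 libraries, between 11.0 and 12.7 RPKM. It stood at 12.6 and 12.7 RPKM in undifferentiated WT and 12.6 and 11.7 RPKM in undifferentiated KO MSCs, and neither genotype comparison was called (log2 fold change -0.06 in each, adjusted p = 0.330 and 0.321). On induction it was called lower by a log2 fold change of -0.13 in each genotype (adjusted p = 0.0367 and 0.0333). Without the variance trend the WT value was not called (0.0542), nor was the KO value in a fit of only the 4 KO libraries (0.0869). The call in WT was lost without any 1 of the WT or differentiating KO libraries (0.0514 to 0.163). That in KO MSCs was lost without either library of undifferentiated WT or differentiating KO MSCs or replicate 1 of undifferentiated KO MSCs (0.0573 to 0.161). Of the 13 other TRAPP genes, 4 were lower and none higher in undifferentiated KO MSCs, and 3 were higher and 1 lower in differentiating KO MSCs (32.2% and 40.7% of all genes called). In undifferentiated MSCs 6 were lower with quantile normalization and 7 with median centring, and in differentiating MSCs median centring gave 3 higher and 3 lower. *Trappc6a* had the largest of these differences, with a log2 fold change of -0.87 in undifferentiated MSCs, and was picked for this after its value was seen.

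*Cstb*, the most abundant gene of the set, had no called genotype difference. The libraries stood at 158 and 171 RPKM in undifferentiated WT and 163 and 171 RPKM in undifferentiated KO MSCs, and at 194 and 195 RPKM in differentiating WT and 182 and 165 RPKM in differentiating KO MSCs. The log2 fold change between genotypes was 0.03 before induction (adjusted p = 0.788) and -0.16 after it (adjusted p = 0.0764). The last value was -0.23 and called (0.0321) without replicate 1 of differentiating KO MSCs. *Cstb* rose on induction in WT (0.24, standard error 0.06, adjusted p = 0.0136). In KO MSCs the log2 fold change was 0.05 (adjusted p = 0.461), and the interaction was not called (-0.19, adjusted p = 0.132). The rise in KO MSCs was 0.18 and called with quantile normalization (0.0104), and the interaction was -0.26 and called without replicate 1 of differentiating KO MSCs (0.0478). The rise in WT lost its call with median centring (0.0839), and without replicate 1 of undifferentiated or either replicate of differentiating WT MSCs (0.0599 to 0.0755).

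Of a list of 11 other cystatin and cathepsin genes, 7 were lower and none higher in undifferentiated KO MSCs (median log2 fold change -0.25), with 32.2% of all genes called. The 7 include *Ctsa* and *Ctsd*, which are not cysteine proteases and so not among the enzymes that cystatins inhibit. In differentiating KO MSCs 5 were higher and 2 lower (median -0.02, 40.7% of all genes called). The DEG of this list was cathepsin S (*Ctss*), a protease of antigen-presenting cells. It stood at 0.688 and 0.827 RPKM in undifferentiated WT and 0.0538 and 0.140 RPKM in undifferentiated KO MSCs, and at 2.14 and 2.69 RPKM against 0.206 and 0.297 RPKM after induction (log2 fold change -2.15 and -2.84, adjusted p = 0.00289 and 0.00119). The leukocyte marker sum given above, in undifferentiated MSCs through *Lyz2*, was lower in the same KO libraries. Its part in the *Ctss* result was not tested.

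*Lrrc3* was low in all libraries and higher after induction. It stood at 0.537 and 0.509 RPKM in undifferentiated WT, 0.797 and 0.769 in differentiating WT, 0.582 and 0.546 in undifferentiated KO and 0.688 and 0.675 RPKM in differentiating KO MSCs. The rise was called in WT (log2 fold change 0.50, standard error 0.09, adjusted p = 0.00313) and not in KO MSCs (0.24, adjusted p = 0.0511), and the difference between them was not called (-0.27, adjusted p = 0.140). The rise in WT lost its call under quantile normalization (0.20, adjusted p = 0.0950), under which the value in KO MSCs was negative (-0.09). The genotype differences were 0.09 before and -0.18 after induction (adjusted p = 0.460 and 0.166). Without the variance trend the last difference, the rise in KO MSCs and the interaction were called (0.0344, 0.00564 and 0.0284).

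*Trpm2* was at or near the limit of detection, between 0 and 0.0165 RPKM, which rests on about 0 to 5.9 reads a library. A count of 3 reads would give 0.00634 to 0.00876 RPKM, and no comparison was called in the fit of all genes above 0 (lowest adjusted p 0.512). Of the 7 other TRPM channel genes 4 could be tested. Of these *Trpm4* and *Trpm7* were called lower in undifferentiated and *Trpm3* higher in differentiating KO MSCs, with no DEG. The 1 gene of the *Lrrc3* family found in the table, *Lrrc3b*, was below the minimum.

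Read together, 4 of the 7 tested genes were called between genotypes in undifferentiated MSCs, 2 higher (*Pwp2*, *Agpat3*) and 2 lower (*Dnmt3l*, *Pfkl*), while 32.2% of all 15342 genes were called. The DEG limits were met by *Dnmt3l* and *Pfkl*, against 1.7% of all genes. In differentiating MSCs 3 of 7 were called (*Agpat3*, *Dnmt3l*, *Pfkl*), with 40.7% of all genes, and the DEG was *Dnmt3l*, with 3.3% of all genes. On induction 7 of 7 were called in WT (64.4% of all genes) with *Pfkl* the DEG (14.3%). In KO MSCs 4 of 7 were called (72.9%), again with *Pfkl* the DEG (22.9%). The interaction was called for *Pfkl* and *Pwp2* (39.4% of all genes) with no DEG (6.17%). The share of called genes was near or below that of all genes in differentiating MSCs, in the response of KO MSCs and in the interaction. It was above it in undifferentiated MSCs and in the response of WT MSCs, with only 7 genes to count, 1 of which is the mutated gene itself.

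Across the wider locus, 500 kb to either side of *Dnmt3l*, the table held 38 genes. Of these 18 were tested, and 16 were listed at 0 throughout. Of the 18, 6 (33.3%) were called between genotypes in undifferentiated and 8 (44.4%) in differentiating MSCs, near the 32.2% and 40.7% of all genes. Among the 11 tested genes that are not in the set, 2 and 5 were called, in both directions (1 higher and 1 lower, then 3 higher and 2 lower). The median log2 fold change of these 11 genes was -0.03 and 0.07. The 11 include the microRNA genes *Mir1930*, *Mir6907* and *Mir6410*, whose values may rest on very few reads. Within 250 kb 4 and 5 of 8 tested genes were called, and within 1000 kb 9 and 13 of 28.

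Of the genes outside the set, *Itgb2* and the microRNA gene *Mir1930* met the DEG limits, both in differentiating MSCs. *Itgb2* (chr10:77530252-77565708, plus strand) encodes the CD18 integrin chain of leukocytes and is also on the leukocyte list. It stood at 0.398 and 0.460 RPKM in differentiating WT and 0.0970 and 0.220 RPKM in differentiating KO MSCs (log2 fold change -1.07, standard error 0.27, adjusted p = 0.0238). The call was lost without replicate 1 or 2 of differentiating WT (0.0677 and 0.110) and in a fit of only the 4 libraries (0.0771). The leukocyte sum, of which *Lyz2* was the largest term, was lower in the same KO libraries, and its part was not tested. *Mir1930* (chr10:77641224-77641307, plus strand) was listed at 26.7, 25.6, 19.6 and 25.5 RPKM in the WT libraries. It was listed at 27.2 RPKM in replicate 1 of undifferentiated KO and at 0 in the other 3 KO libraries. Its values above 0 fall as the estimated depth rises, from 27.2 RPKM at 48.4 M scaled reads to 19.6 RPKM at 66.9 M. The same read count in each of these libraries would give such values, and on so short a gene it may be very low. The reads of *Mir1930* were not estimated, so its DEG status may rest on a minimal count against none.

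**Figure D4:**
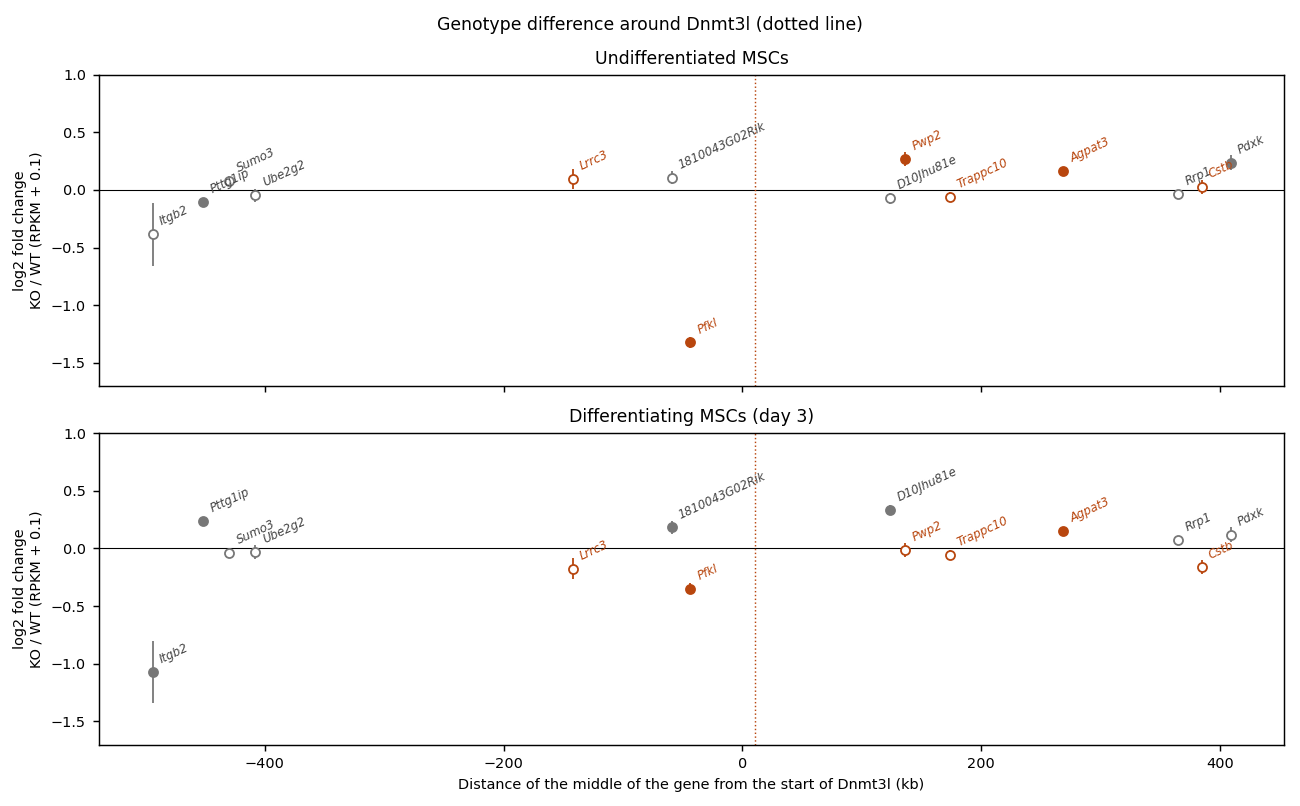
Log2 fold change of KO against WT (vertical axis, RPKM + 0.1, bars for the standard error) for tested genes within 500 kb of *Dnmt3l*, by the distance of the gene's middle from the start of *Dnmt3l* in kb, in undifferentiated (top) and differentiating MSCs (bottom). Genes of the set are orange, others grey, and filled points have an adjusted p under 0.05. *Dnmt3l* (dotted line), which is listed at 0 in KO MSCs, and the 3 microRNA genes are not drawn. *Pfkl* at -1.32 stands apart at the top, and *Itgb2* at -1.07 and *Pfkl* at -0.35 are the lowest at the bottom.

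Partners of DNMT3L and enzymes of DNA methylation, 14 genes with *Dnmt3a*, *Trim28* and *Setdb1* among them, were all tested. Their 5 and 3 calls between genotypes were near and below the share of all genes (32.2% and 40.7%). In undifferentiated KO MSCs 4 were higher (*Dnmt1*, *Dnmt3b*, *Trim28* and *Nsd1*) and *Tet2* was lower. In differentiating KO MSCs *Kdm1b* was higher and *Dnmt1* and *Uhrf1* were lower, *Uhrf1* being the DEG. In a fit of only the 4 differentiating libraries *Uhrf1* had an adjusted p of 0.0541. *Trim28*, the corepressor of transposable elements, had log2 fold changes of 0.18 and -0.05 in the 2 states (adjusted p = 0.0178 and 0.299).

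The genes whose pattern over the 8 libraries was most like that of *Dnmt3l* were named by Pearson's correlation of log2(RPKM + 0.1) among 12269 genes. They were *Mir8117* (0.993), *Mid1* (0.992), *Igsf10* (0.992), *Spats2l* (0.987) and *Slc12a2* (0.985). *Mir8117* was listed at 6.18 to 8.44 RPKM in WT and at 0 in all 4 KO libraries, so it passed the mean of 1 RPKM through WT alone. Its WT values fall as the estimated depth rises, from 8.44 RPKM at 48.8 M scaled reads to 6.18 RPKM at 66.9 M. The same read count in each WT library would give such values. That count was not estimated and may be very low. *Igsf10* stood at 7.50 to 9.29 RPKM in WT and 4.45 to 4.83 RPKM in KO MSCs, and *Mid1* at 4.83 to 5.73 against 3.31 to 3.53 RPKM. With *Dnmt3l* at 0 in 4 libraries, these correlations mostly describe the split between WT and KO libraries.

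For *Pfkl* the most alike of 11974 genes were *Egln1* (0.999), *Fam162a* (0.997), *Ero1l* (0.997), *Ube2g1* (0.997) and *Cdsn* (0.996). *Egln1*, an oxygen-dependent prolyl hydroxylase, stood at 21.1 and 21.9 RPKM in undifferentiated WT, 9.93 and 10.4 in differentiating WT, 13.3 and 13.1 in undifferentiated KO and 9.25 and 8.97 RPKM in differentiating KO MSCs. *Fam162a* went from 183 and 195 RPKM in undifferentiated WT to 93.0 and 90.2 RPKM in undifferentiated KO MSCs. The points of these correlations are 8 libraries that share their groups and cell mixes.

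Stromal markers were present in all groups. All 11 listed stromal markers were in the table, with sums of 1582 to 1611 RPKM in undifferentiated WT, 1733 to 1740 in undifferentiated KO, 3032 to 3107 in differentiating WT and 3857 to 3911 RPKM in differentiating KO MSCs. The rise follows mostly *Ly6a*, with means of 474 and 1847 RPKM in WT and 646 and 2563 RPKM in KO MSCs before and after induction. Single markers did not all share it. On induction 7 were called higher and 4 lower in WT, and 5 higher and 5 lower in KO MSCs. Between genotypes 5 were higher and 3 lower before induction, and 5 higher and 5 lower after it. Endothelial markers summed to 0.537 to 4.65 RPKM over the libraries, most of it *Tek*. The 7 osteoblast markers summed to 2097 to 2320 RPKM in differentiating WT and 1169 to 1238 RPKM in differentiating KO MSCs, against 1225 to 1587 RPKM in the undifferentiated groups. These sums rest mostly on *Col1a1*, *Spp1* and *Ibsp*, and single markers went against the label of differentiating cells. On induction in WT MSCs *Ibsp* and *Spp1* were called higher and *Sp7* and *Alpl* lower (log2 fold change -1.25 and -0.30), and in KO MSCs 5 of the 7 were called lower and *Ibsp* higher. The part of these differences in cell state in the results for the 10 genes was not tested.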

How the data were processed

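RNA of 8 libraries, 2 in each of 4 groups, was depleted of ribosomal RNA and made into stranded libraries. Per the labels and the study's methods, the authors aligned 50-base single-end reads to mm10 with TopHat2 (2.1.0), using iGenomes gene models, and quantified genes with Cuffdiff of Cufflinks (2.2.1). What they deposited is an RPKM value for every gene in every single library. Of 24346 genes, 4324 were at 0 in all libraries, and 0 columns had no sample.

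Depth was estimated from 3989 single-transcript genes, by the steps between their low RPKM values after taking 202 nt off the transcript length. Whole reads within 0.05 were obtained for 71.4% of 5525 low values, too few for a count test. Chance gives 10% at a depth that is not fitted. Depth and the 202 nt were chosen to make this share large, so 10% is not its chance level. Limits of 3 reads cover counting error only.

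A mean of each group was fitted to log2(RPKM + 0.1) of all 8 libraries in limma 3.58.1 (R 4.3.3) with a variance trend (4 residual and 1.98 prior degrees of freedom), with Benjamini-Hochberg adjustment over 15342 genes. The fit was tested on simulated data. *Icosl* and *Trpm2* come from the fit without the minimum. Other steps used Python 3.11.15 with numpy 2.4.6, pandas 2.3.3, scipy 1.17.1 and matplotlib 3.10.9. Positions are from GENCODE vM21 and promoters from RefSeq.

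Named were all 10 genes, the DEGs of a genotype comparison or the interaction among the genes within 500 kb and of a genotype comparison among the lists of pathways and families (at most 4 a list, cell type marker lists not included), *Pfkm* and *Pfkp*, and the 5 genes most correlated with *Dnmt3l* and with *Pfkl* (mean of at least 1 RPKM, for *Pfkl* without genes at 0 in both libraries of a group). Other list members given by symbol were picked with their values known. The 10 genes and the lists were chosen with earlier results of these data known. Alternatives covered the pseudocount, the minimum, the scaling, the variance trend, a replicate block, a fit restricted to the 4 libraries of a comparison, and the omission of single libraries. Those for *Icosl* and *Trpm2* without the minimum, for the lists and for the other named genes were chosen after seeing the data.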

Additional observations from a re-analysis of the deposited data

Results flagged for a closer look

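For *Pfkl* the response to induction differed between the genotypes by a test of the difference itself, the genotype by induction interaction (0.972 on the log2 scale, adjusted p = 6.82e-04, limma). The fall was smaller in KO MSCs, and both KO libraries started from 23.4 to 23.5 RPKM against 58.2 and 59.3 RPKM in WT.

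*Pwp2* was also singled out by the interaction, with the opposite sign (-0.282, adjusted p = 0.0464). Its fall was larger in KO MSCs, and this call was lost in 11 of 16 alternatives, with adjusted p-values of 0.0267 to 0.128 over all of them. Groups of 2 libraries are too small for a search for outlying libraries.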

How the results depend on the processing

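No result changed its direction while called. Of 681 single values of the 10 genes under an alternative, 616 kept their side of the threshold, 56 lost a call and 9 gained one. Of 172 counts 149 stayed within 1.5 times. Without each library in turn, the called genes numbered 2 to 4 between genotypes in undifferentiated MSCs, 4 to 7 for induction in WT and 1 to 3 for the interaction. The DEGs numbered 0 to 2 for induction in KO MSCs and 0 to 1 for the interaction. With a pseudocount of 1 there was no DEG (0) between genotypes in differentiating MSCs and none (0) for induction in KO MSCs. Without the minimum there were 2 DEGs between genotypes in differentiating MSCs, *Icosl* then being counted. Quantile normalization and median centring each gave 2 DEGs for induction in KO MSCs. Without the minimum, and with median centring, 1 gene was called for the interaction. Median centring moved the median of all genes by -0.10 for induction in WT. Apart from these effects of construction, the cause was not tested.

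The replicate numbers did not pair the libraries: the deviations of same-numbered libraries from their group means correlated by -0.0924 to 0.0304 over 6 pairs of groups, below the 0.1 set for pairing. With the replicate block 1 gene (*Pfkl*) was called for the interaction, *Pwp2* having an adjusted p of 0.0818. Of 34 counts of lower glycolysis genes 31 stayed within 1.5 times, and of 168 values of the other named genes 160 kept their side of the threshold. With 3 reads at 0.0277 to 0.0383 RPKM for *Dnmt3l*, depth limits what can be said of *Dnmt3l* in KO MSCs, of *Aire* and *Trpm2*, and of *Icosl* in KO MSCs.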
